A study of Homo sapiens with 4 samples.

Results

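The regions described here were 1042 long distal H3K27ac peaks of sgCtrl cells that had no counterpart in the sgSNHG1 peak list. They were selected on measured values. A peak of the sgCtrl list was taken when it was at least 600 bp long, lay over 5000 bp from every GENCODE protein-coding start site and had no sgSNHG1 peak within 1000 bp. Chromosomes 1 to 22 were used, leaving out chromosome 4 from position 51800000 on and chromosome 9 below position 28000000. The sgCtrl list held 63699 peaks, of which 61754 lay on these chromosomes and 8927 were both long and distal. The 1042 control-only regions were thus 11.7% of the long distal sgCtrl peaks (95% Wilson interval 11.0 to 12.4%). The other 7885, called retained regions below, had an sgSNHG1 peak within 1000 bp, and 7652 of them overlapped it.

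H3K27ac was measured by ChIP-seq in SK-N-BE(2)C, a *MYCN*-amplified human neuroblastoma cell line. The sgCtrl cells carried a non-targeting guide RNA and are labelled wildtype, and the sgSNHG1 cells carried guides against *SNHG1*, a long non-coding RNA gene that hosts small nucleolar RNAs, and are labelled *SNHG1* knockout. Both were made with Cas9, kept under puromycin selection and sorted as single-cell clones, so a difference between the groups cannot be told apart from a difference between clones, and the sources do not name the clone used for ChIP-seq. Each group had 2 samples, which the authors combined before peak calling, so the data are 1 list per group, no spread between replicates exists in them, the depth is unknown, and every comparison is a description with no test.

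Acetylation of lysine 27 on histone H3 marks nucleosomes at active promoters and active enhancers. Away from promoters it is used to find enhancers, short stretches of DNA where transcription factors bind and act on genes that may lie far away. In adrenergic neuroblastoma cells, clusters of such enhancers surround genes of the transcription factors that hold the cell state, among them *HAND2*, *GATA3*, *ISL1*, *TBX2* and *MYCN*.

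The reference sequence at the summit is shown for some of these regions. Of the highest control-only regions by −log10 p, 4 are printed as 200 bases around the summit (GRCh38, + strand). Each is named after the gene with the nearest start site. Every match to the GC box bound by SP and KLF factors (GGGCGG, or CCGCCC on the other strand) is in capitals. The *ARHGEF10*, *MKKS* and *VPS53* regions ranked above *PITPNM2* and *PTPRN2* but were left out. Short stretches of the *MKKS* and *VPS53* peaks had a median of 32 and 297 copies in the reference. Sequence with that many copies is thus not among the printed windows.
AGAP1 (chr2:235631384-235631583): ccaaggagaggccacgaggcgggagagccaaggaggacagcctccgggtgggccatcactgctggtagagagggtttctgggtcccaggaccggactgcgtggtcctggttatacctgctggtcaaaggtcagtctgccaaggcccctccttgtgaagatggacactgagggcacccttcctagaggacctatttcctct
NIPA1 (chr15:22664642-22664841): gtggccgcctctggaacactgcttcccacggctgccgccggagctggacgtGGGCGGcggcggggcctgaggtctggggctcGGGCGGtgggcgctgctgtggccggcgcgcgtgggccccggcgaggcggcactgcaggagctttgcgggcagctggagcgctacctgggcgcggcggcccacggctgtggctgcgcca
PITPNM2 (chr12:123093894-123094093): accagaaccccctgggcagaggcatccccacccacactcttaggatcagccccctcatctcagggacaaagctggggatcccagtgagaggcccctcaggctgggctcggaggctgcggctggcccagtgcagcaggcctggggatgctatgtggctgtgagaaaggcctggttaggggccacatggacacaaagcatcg
PTPRN2 (chr7:157587802-157588001): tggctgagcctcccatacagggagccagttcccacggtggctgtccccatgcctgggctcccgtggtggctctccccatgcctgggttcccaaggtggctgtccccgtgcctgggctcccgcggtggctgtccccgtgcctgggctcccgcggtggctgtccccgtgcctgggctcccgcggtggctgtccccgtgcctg
The 4 printed windows fall into different kinds of sequence. The *AGAP1* and *PITPNM2* windows had no GC box, a GC content of 60.5% and 63.5%, and 5 and 3 CpG dinucleotides. The *NIPA1* window was rich in CpG, with 25 of them, 78.0% GC and 2 GC boxes, and its peak lay over an annotated lncRNA start site. The *PTPRN2* window was a tandem repeat, in which 138 of 171 bases (80.7%) equalled the base 29 positions further on.

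Printed in the same way are 3 regions chosen after their values were seen, the 1 within 100 kb of a core regulatory gene (nearest start site *TBX4*, beside *TBX2*) and those in introns of *ZNF536*, a zinc finger repressor of neuronal differentiation, and *RB1*, the retinoblastoma tumour suppressor.
TBX4 (chr17:61482709-61482908): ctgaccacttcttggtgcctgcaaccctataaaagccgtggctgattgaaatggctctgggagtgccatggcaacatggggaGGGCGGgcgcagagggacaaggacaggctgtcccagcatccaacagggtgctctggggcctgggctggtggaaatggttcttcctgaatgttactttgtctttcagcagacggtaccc
ZNF536 (chr19:30339949-30340148): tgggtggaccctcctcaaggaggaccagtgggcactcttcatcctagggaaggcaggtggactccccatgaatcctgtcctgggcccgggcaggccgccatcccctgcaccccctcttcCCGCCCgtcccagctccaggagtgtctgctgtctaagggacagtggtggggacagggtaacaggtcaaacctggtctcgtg
RB1 (chr13:48317163-48317362): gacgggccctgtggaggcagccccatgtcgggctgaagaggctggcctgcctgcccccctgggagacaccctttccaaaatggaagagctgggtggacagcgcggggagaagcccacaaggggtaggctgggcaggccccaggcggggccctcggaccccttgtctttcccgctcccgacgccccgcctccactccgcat
Of these windows, *TBX4* and *ZNF536* had 1 GC box each and *RB1* had none, with GC contents of 57.0%, 64% and 70.0%. No run over 10 bases was shared between any pair of the 7 printed windows.

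Control-only regions were mostly short and low for long peaks. Their length ranged from 600 to 1917 bp with a median of 711.5 bp, against 815 bp for the retained regions. Fold enrichment, the summit divided by the background around it, ranged from 1.81 to 8.99 (median 3.54, against 4.28). The −log10 p of the peak ranged from 7.39 to 94.3 (median 13.6, against 23.2). The quartiles in −log10 p were 11.5 and 16.4 for the control-only regions and 16.8 and 34.1 for the retained regions, so the quartile ranges did not overlap. These measures belong to the sgCtrl list that chose the regions and are given as a description.

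**Figure D1:**
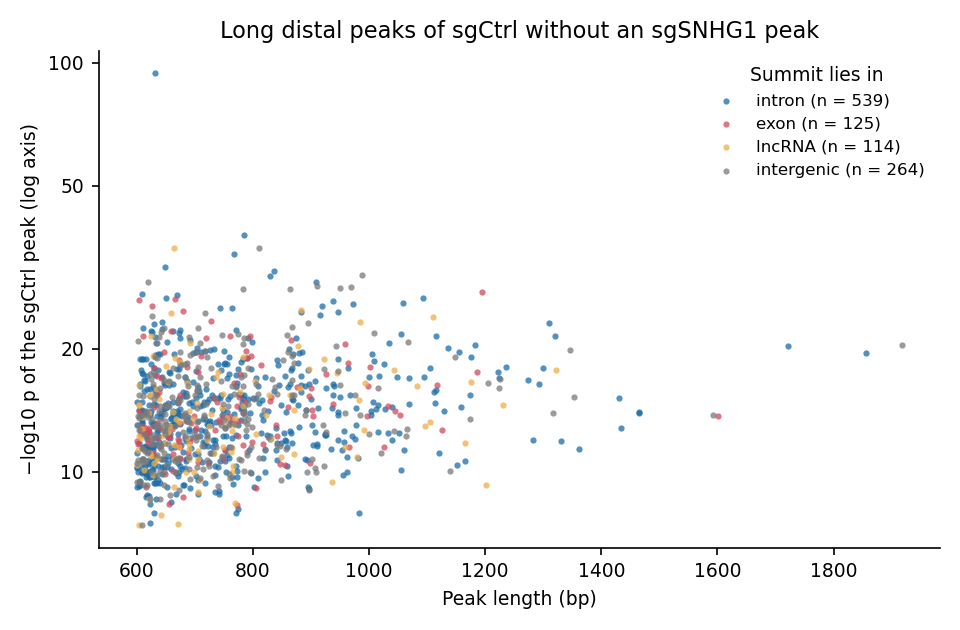
Length in bp against the −log10 p of the sgCtrl peak (log axis) for the 1042 control-only regions, coloured by where the summit lies. The quartiles are 642 and 835 bp in length and 11.5 and 16.4 in −log10 p, with 1 region at 94.3 and 5 regions from 1593 to 1917 bp on the right.

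The highest control-only region by −log10 p lay in an intron of *ARHGEF10* (chr8:1843977-1844608, 632 bp). Its −log10 p was 94.3, its fold enrichment 5.27 and its summit held 245 fragments, and the nearest sgSNHG1 peak was 1800 bp away. It stood in dense acetylation, with 9 other sgCtrl peaks within 10 kb, 6 of them retained. The next was in an intron of *AGAP1*, which encodes a GTPase-activating protein for ARF1 (chr2:235631259-235632042), with a −log10 p of 38.0 and a fold enrichment of 4.62. The following 3 were of another kind, standing alone with no other sgCtrl peak within 10 kb and 52 fragments over a background near the lowest of the list. These were the region beside *MKKS* (fold enrichment 8.99), the one nearest *NIPA1* (chr15:22664387-22665050, 8.99) and the one in an intron of *VPS53* (8.61).

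The remaining regions of the highest 10 had a −log10 p from 29.1 to 31.7. They lay in introns of *PITPNM2* (chr12:123093802-123094450, 31.7), *PTPRN2* (chr7:157587767-157588602, 31.0) and *DENND3* (chr8:141158660-141159488, 30.1), between genes nearest *TPTE* (chr21:6120160-6121146, 30.2), and nearest *ESM1* (chr5:54864943-54865561, 29.1). *PTPRN2* encodes a receptor-type tyrosine phosphatase of dense-core secretory vesicles, and *ESM1* encodes the secreted proteoglycan endocan. The *TPTE* start site was 4400406 bp away, so that name marks only a place on the chromosome. The 5 longest control-only regions were those nearest *PGBD5* (chr1:230300158-230302074, 1917 bp), *PSMD2* in an intron of *ECE2* (chr3:184290942-184292797, 1856 bp), *TUB* (chr11:8088594-8090315, 1722 bp), *FYCO1* (chr3:45966414-45968014, 1601 bp) and *TRIM8* (chr10:102668349-102669941, 1593 bp), with −log10 p from 13.6 to 20.4. None of these 5 was among the highest 10.

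Whether a distal peak lacked an sgSNHG1 counterpart moved with its height and its length. Among long distal sgCtrl peaks the share without one was 45.6% at a −log10 p from 6 to 10 (110 of 241), 27.7% from 12 to 15 (338 of 1220), 4.81% from 20 to 25 (67 of 1394) and 0.118% at 50 or more (1 of 848, the *ARHGEF10* region). Among distal peaks of every length it was 38.8%, falling from 59.6% at 200 to 300 bp (8084 of 13573) to 17.3% at 600 to 700 bp (477 of 2759) and 1.07% at 1500 bp or more (5 of 468). Length and height overlapped but did not coincide. At a −log10 p from 10 to 15, the share was 38.7% for peaks of 600 to 700 bp and 19.6% for those of 1000 bp or more. Over sgCtrl peaks of any place and length it was 30.9%. Long peaks within 5000 bp of a protein-coding start site had no counterpart in 3.92% of cases (328 of 8367). In the opposite direction, 93 of 5111 long distal sgSNHG1 peaks (1.82%) had no sgCtrl peak within 1000 bp. The sgSNHG1 list was the smaller, with 50119 peaks in all against 63699. It thus offered fewer possible counterparts, and the 2 directions are not compared like with like. All of these shares use the contrast that chose the regions, so they are the background of the count and are not read further.

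**Figure D2:**
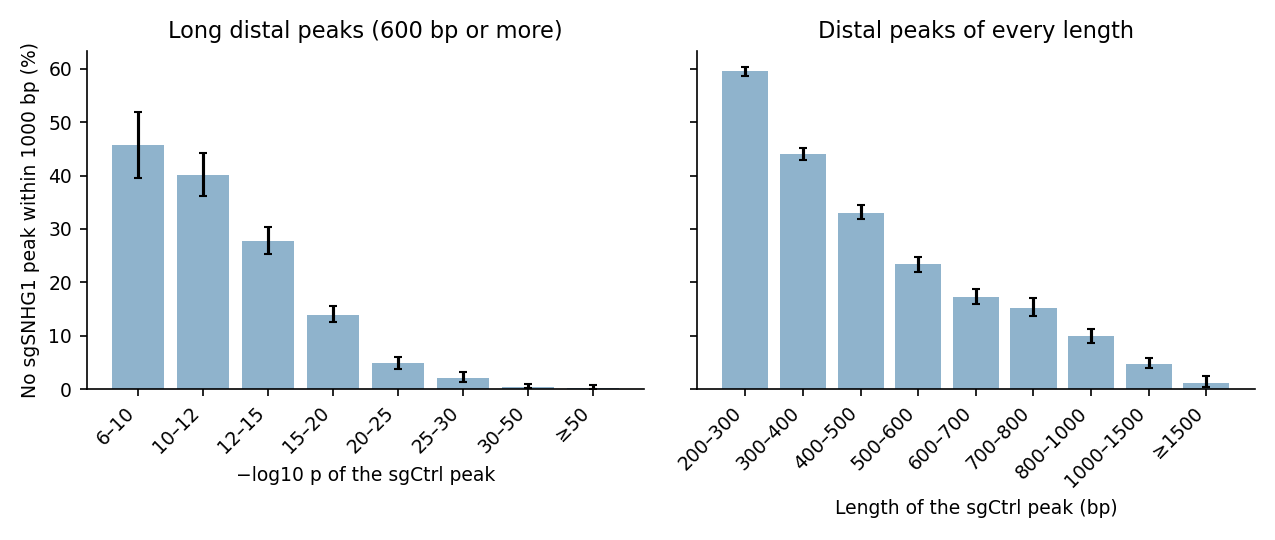
Share of distal sgCtrl peaks with no sgSNHG1 peak within 1000 bp, by the −log10 p of long distal peaks (left) and by the length of all distal peaks (right), with 95% Wilson intervals. The share falls from 45.6% to 0.118% with height and from 59.6% to 1.07% with length.

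Peaks just inside and just outside the length limit had overlapping heights. The 3 control-only regions of 600 bp had a −log10 p of 13.0, 10.2 and 9.14, and 3 peaks of 599 bp that met the other limits had 9.52, 10.5 and 12.9. Within 9 bp above the length limit there were 65 control-only regions, and 58 peaks lay within 10 bp below it. The closest sgSNHG1 peaks to control-only regions were 1007, 1013 and 1014 bp away, and the retained regions with the widest gaps had 986, 985 and 985 bp. The control-only regions nearest to a start site were 5060, 5077 and 5199 bp from it, and the nearest peaks outside this limit were at 4998, 4988 and 4962 bp.

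The height at which the sgSNHG1 list would have held these regions was recovered from the lists. The −log10 p and fold enrichment of a peak together fix the number of fragments over its summit and the local background, if both follow the peak caller's Poisson model with 1 added to each. A whole number of fragments gave back the listed −log10 p to within 0.001 for 100% of the control-only regions and 99.1% of the long distal peaks. The control-only regions held a median of 47 fragments (lowest 21, highest 245) over a background of 11.9, and the retained regions 71 over 15.3. The lowest background was 4.89 for sgCtrl and 4.66 for sgSNHG1, a ratio of 0.952, which was used to scale the lists to each other. With sgCtrl pileup and background scaled by this ratio, all 1042 control-only regions would have passed the threshold of the sgSNHG1 list, and 1014 would have passed when scaled by the median pileup ratio of the retained regions, 0.743. The first count was nearly fixed by the selection, since the lowest −log10 p of these regions was 7.39 against a threshold of 6. The second ratio comes from regions that had to be called in sgSNHG1. Why the regions were absent was not tested. The summit pileup needed to pass had a median of 31 fragments (18 to 116), or 71.4% of the scaled sgCtrl pileup (quartiles 65.1 and 77.8%). Absence from the sgSNHG1 list thus put an upper limit on each region's pileup there, if its local background was unchanged. The limit also assumes that any summit above the threshold was listed, however narrow. A minimum peak length in the caller was not taken into account. For 32 of 1042 (3.07%) the limit was under 50% of the scaled sgCtrl pileup. The limit was lowest for the *ARHGEF10* region, at 33.4%, which corresponds to 78 fragments needed.

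The retained regions show how far pileup moved where both lists hold a value. Over 7567 of them, the log2 ratio of sgSNHG1 to scaled sgCtrl pileup had a median of −0.36 (quartiles −0.56 and −0.13), and 131 (1.73%) were below 50% of the scaled pileup. Over 7838 long peaks within 5000 bp of a start site that overlapped an sgSNHG1 peak, the median was 0.00 (quartiles −0.31 and 0.24). The limits of the control-only regions had a median log2 of −0.49 (quartiles −0.62 and −0.36), and 2558 retained regions (33.8%) lay below that median. A fall as large as the median control-only region needed was thus also measured in retained regions. Within the same range of height the limit lay lower. From 10 to 15 in −log10 p it was −0.43 against a median change of −0.17 in the retained regions, and from 25 to 30 it was −1.07 against −0.45. The limits were computed from scaled sgCtrl values and the threshold, with no sgSNHG1 pileup of the region. Their fall with height is thus largely by construction. Retained regions enter only when they were called in sgSNHG1, so their own falls are cut off at the same threshold. The gap between the groups was thus partly fixed by the selection.

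**Figure D3:**
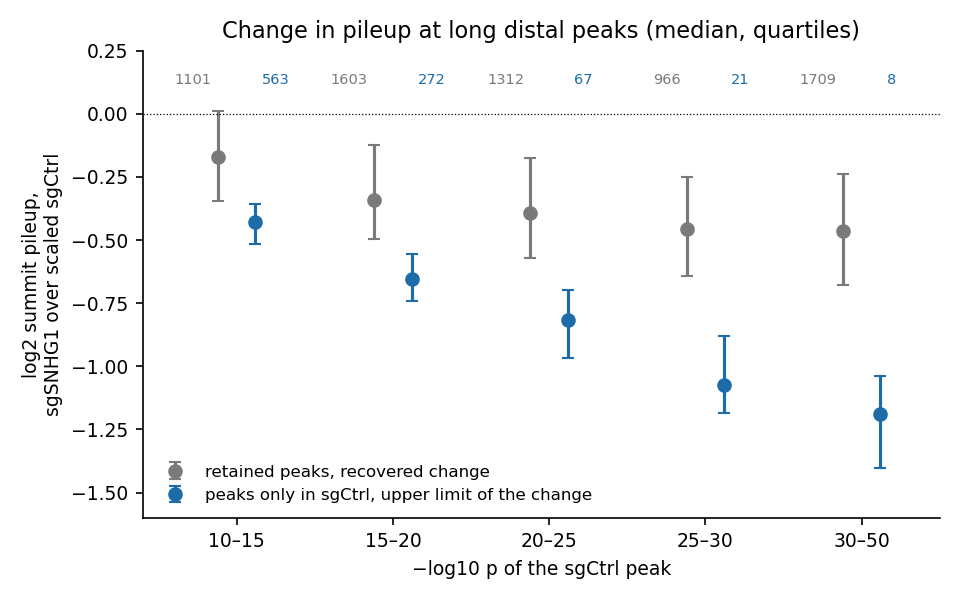
Log2 summit pileup in sgSNHG1 over scaled sgCtrl for retained long distal regions (grey, recovered) and for control-only regions (blue, the upper limit set by their absence), by −log10 p of the sgCtrl peak, with medians as points, quartiles as bars and the number of regions above. Both go down with height, from −0.17 to −0.46 for the retained and from −0.43 to −1.19 for the control-only regions. The blue limits hold no sgSNHG1 pileup and rest on the conditions given in the text. Their fall with height is largely by construction, and the grey values are cut off at the same threshold.

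By position in genes, 539 control-only regions (51.7%, 48.7 to 54.7) had their summit in an intron of a protein-coding gene, against 44.2% of the retained regions. A further 125 (12%) lay in exons, 114 (10.9%) in lncRNA genes and 264 (25.3%) between genes, against 11.6, 14.1 and 30.1%. Part of the intron difference went with height: within a −log10 p from 10 to 20 the intron share was 51.1% of 835 control-only (47.7 to 54.5) and 47.0% of 2896 retained regions (45.2 to 48.8), intervals that overlap. Heights were not equal within this range. The median −log10 p was 13.6 for control-only and 15.7 for retained regions, so differences there may still go with height. In the same range 5.03% of control-only and 6.98% of retained regions lay within 1000 bp of a lncRNA start site, with overlapping intervals. The distance to the nearest protein-coding start site had a median of 31618 bp for the control-only and 30717 bp for the retained regions. Within 5 Mb of a chromosome end lay 27.4% of the control-only and 24.5% of the retained regions, and 28.3 and 28.6% in the range from 10 to 20.

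The neighbourhood of the regions was described by the other sgCtrl peaks within 10 kb. A retained sgCtrl peak of any length stood within 10 kb of 469 control-only regions (45%, 42.0 to 48.0) and of 61.1% of the retained regions (60 to 62.1). In 212 (20.3%) other sgCtrl peaks stood within 10 kb but all of them also lacked an sgSNHG1 counterpart, against 8.78% of retained regions. Of the 1677 neighbour pairs of control-only regions, 977 (58.3%) had a retained neighbour, against 78.0% for retained regions, and these pairs are not independent. These differences were partly fixed by the selection, since the sgSNHG1 peak that a retained region must have can also be the counterpart of its neighbour. When only sgSNHG1 peaks over 1000 bp from the region itself could make a neighbour retained, the share was 52.1% of retained regions (51.0 to 53.2). For control-only regions it stayed at 45% by the rule, since they have no sgSNHG1 peak within 1000 bp. In the range from 10 to 20 the share was 52.1% of retained (50.3 to 54.0) and 45.7% of control-only regions (42.4 to 49.1).

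By these counts, the control-only regions had 3 kinds of surroundings. The 361 regions with no other sgCtrl peak within 10 kb stood high over a low background, with a median fold enrichment of 4.41, 34 fragments and a background of 6.27, and lay 23436 bp from the nearest sgSNHG1 peak. The 469 regions beside a retained peak had a median fold enrichment of 3.04, 62 fragments over a background of 19.7, and an sgSNHG1 peak 5150 bp away. The 212 beside lost peaks only lay between, at 3.39, 47 fragments, 12.4 and 16831 bp. The −log10 p hardly separated them, with medians of 13.2, 13.9 and 13.3. GC content was 60% in the first kind, 63.3% in the second and 63.0% in the third.

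Most control-only regions lay near an sgSNHG1 peak. The nearest sgSNHG1 peak was 1 to 2 kb away for 124 control-only regions, 2 to 5 kb for 139 and 5 to 10 kb for 260, with a median of 9895 bp. Only 33 regions (3.17%) had none within 100 kb, and the largest distance was 990115 bp. Of the 15 regions with none within 200 kb, the following were picked after their values were seen. The farthest was nearest *SYT4* (990115 bp), a synaptotagmin gene, and others were in an intron of *NLGN1* (313898 bp), which encodes the postsynaptic adhesion protein neuroligin 1, near the cadherin gene *CDH18* (240448 and 718766 bp) and near *GRIA1* (259290 bp), an AMPA glutamate receptor subunit gene. The region in an intron of *LINGO2* (293368 bp) was next to the left-out part of chromosome 9. The rest of the 15 were nearest *SOX9*, *SPOCK1*, *LPP*, *TRPM3*, *ADGRL2*, *MMP16*, *LRRIQ3*, *SNTG1* and *CSMD2*.

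Control-only regions came from every chromosome used. The share of long distal sgCtrl peaks ranged from 7.43% on chromosome 21 (13 of 175) to 17.6% on chromosome 4 (30 of 170). A chromosome gained or lost in 1 clone would move pileup over its whole length. The median log2 pileup ratio of retained regions ranged from −0.45 on chromosome 17 to −0.27 on chromosome 10, and was −0.37 on chromosome 4 and −0.41 on chromosome 21. The part of copy number in the shares was not tested.

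Most genes had a single region. The 1042 regions had 878 nearest genes, of which 746 had 1 region, 109 had 2 and 23 had 3 or more. By position 520 regions lay inside their nearest gene and 144 inside another protein-coding gene. At the promoter of the nearest gene, within 3000 bp of a start site, both lists held a peak for 877 regions (84.2%, 81.8 to 86.3), against 85.2% of retained regions, and only the sgCtrl list did for 42 (4.03%), against 3.37%. Of the 878 genes, 516 were also nearest to a retained long distal region and 362 were not. Of the 362, 24 had at least 2 control-only regions. Of these 24, *WDR18* had 3, and the genes in the next sentence were picked after their values were seen. The protocadherin gene *PCDH1* (−log10 p 20.9 and 24.8), the neuronal adhesion gene *DSCAML1* (19.6 and 22.3) and the LIM homeobox gene *LHX4* (12.6 and 17.1) had 2 each. So did *LMAN2*, *ANKS1A*, *PLEKHA7*, *CTSL* and *C19orf81*, all with a higher summed −log10 p than *LHX4*.

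*PTPRN2* had the most control-only regions, 6 of its 37 long distal sgCtrl peaks, with −log10 p from 11.6 to 31.0, and 5 of them lay inside the gene (chr7:157539056-158587823). *VIPR2*, the neighbouring gene for a receptor of vasoactive intestinal peptide, had 4 of 10, from 10.2 to 20.5. Also on chromosome 7, *MAD1L1*, a spindle checkpoint gene, had 4 of 37, all in its introns and with low fold enrichments from 2.11 to 2.72 over a dense background. *MYT1L*, a neuronal zinc finger transcription factor gene, had 4 of 22, with −log10 p from 8.10 to 19.4. On chromosome 8, *KCNK9*, which encodes the potassium channel TASK-3, had 4 of 14, 3 of them in introns of the neighbouring *TRAPPC9*, and *TSNARE1* had 4 of 30. The share was larger at *CCSER2* (4 of 7, all between genes, 118740 to 673552 bp from its start sites) and at *LINGO2* (3 of 5, all in its introns, fold enrichment 5.09 to 7.47), a gene that spans the limit of the left-out part of chromosome 9. Promoter peaks of these 8 genes were in both lists.

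Few control-only regions formed runs. When regions within 50 kb of each other were joined, 878 stood singly, 64 pairs and 8 triples formed, and 3 runs held 4 regions each. The runs of 4 lay at *LHPP* and *FAM53B* (chr10:124535744-124616991), at *WDR18* and *GRIN3B* (chr19:964031-994490) and at *FGFR3*, *LETM1* and *NSD2* (chr4:1779589-1864904). Between the ends of the *WDR18* run, 5 of the 6 sgCtrl peaks of any length had no sgSNHG1 counterpart, against 7 of 18 in the *FGFR3* run and 13 of 19 in the *LHPP* run. *FGFR3* encodes a fibroblast growth factor receptor and *NSD2* a histone H3 lysine 36 methyltransferase.

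Near the core regulatory genes, 1 of 29 long distal sgCtrl peaks was control-only (3.45%, 0.611 to 17.2), an interval that holds the 11.7% of all long distal peaks. Within 100 kb of the start site, *MYCN* had 19 long distal sgCtrl peaks, *GATA3* 3 and *ISL1* 2, none of them control-only. *TBX2* had 5, of which 1 was control-only, in an intron of *TBX4* (chr17:61482634-61483340, fold enrichment 2.27, −log10 p 10.8), 2607 bp from an sgSNHG1 peak. *HAND2* lies in the part of chromosome 4 that was left out. Distal peaks of any length without a counterpart numbered 2 of 49 at *MYCN*, which is amplified in these cells, 2 of 12 at *GATA3*, 0 of 2 at *ISL1* and 2 of 16 at *TBX2*.

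Gene lists for the cell states and pathways of neuroblastoma, chosen with earlier results of these data known, were read against the 11.7% of all long distal peaks. Adrenergic transcription factors, of which 24 had a long distal peak as the nearest gene, had 11 control-only regions among 144 (7.64%, 4.32 to 13.2), spread over 10 genes. The highest were at *ZNF536* (chr19:30339428-30340306, −log10 p 19.5), *PROX1*, a homeobox gene of neural progenitors (chr1:213808067-213808785, 16.4), and *EBF3* (chr10:129922330-129922999, 14.7). Mesenchymal transcription factors had 3 of 40 (7.50%, 2.58 to 19.9), far beyond *SOX9* (951198 bp), in *TWIST2* and in *NFIA*. Both intervals hold 11.7%.

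Ion channel genes had the largest share of the lists, 11 control-only regions of 45 (24.4%, 14.2 to 38.7), over 8 of 19 genes. The list does not hold *KCNK9*, a channel gene with more control-only regions than any on it. There were 2 each at *KCNN3*, *KCNH1* and *CACNA1B*. The highest lay in introns of *KCNN3*, a calcium-activated potassium channel gene (chr1:154787153-154788124, −log10 p 25.7), and *TRPM3* (chr9:71026043-71027006, 17.9), and near *GRIA1* (chr5:153296104-153296867, 16.2). Matrix and integrin genes had 9 of 56 (16.1%, 8.69 to 27.8), the highest being nearest the collagen genes *COL18A1* (−log10 p 16.8) and *COL6A3* (14.9) and the proteoglycan gene *SPOCK1* (13.1). Genes of axon guidance and neuronal adhesion had 18 of 141 (12.8%, 8.23 to 19.3), with the highest in *TENM4* (18.0), a teneurin gene, and near *SEMA3A* (16.2), a secreted axon repellent, and *CNTN5* (15.4). WNT, TGF-beta and BMP genes had 5 of 65 (7.69%, 3.33 to 16.8), near *ROR2*, *WNT7B* and *WNT3*. Cell cycle and proliferation genes had 4 of 41 (9.76%, 3.86 to 22.5), among them 1 in the receptor tyrosine kinase gene *ALK* (10.1) and 1 in *RB1* (15.2). Of the 7 lists, only the interval of the ion channel genes lay apart from 11.7%, and with 7 lists and no test nothing is called particular to it.

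In sequence, control-only regions were less GC-rich. Over 300 bases around the summit the GC content had a median of 62.3% (quartiles 58.0 and 66.0), against 65.7% (61.3 and 71.0) for retained regions, and the ratio of observed to expected CpG was 0.298 against 0.380. At a −log10 p from 10 to 20 the medians were 62.3 and 63.7% GC, and 0.293 and 0.298 for CpG, so most of the difference in CpG went with height. Some regions held repeated sequence. The median of 5 stretches of 30 bases per peak occurred more than once in the reference for 129 control-only regions (12.4%) and 21.5% of the retained, and for 10.7 and 12.3% in the range from 10 to 20. The 72 regions with 10 or more copies had a median fold enrichment of 4.99 over a background of 5.29, and 44 of them (61.1%) stood alone, against 31.4% of the 913 single-copy regions. Of the highest regions, the *VPS53* peak had 297 copies, the *MKKS* peak 32 and the *NIPA1* peak 2. Other regions at named genes also held repeated stretches, such as 1 each nearest *PLEKHA7* (53 copies), *CCSER2* (28), *PROX1* (27), *NFIA* (9), *CSMD2* (7), *GRIA1* (6) and *SOX9* (5). Reads from such sequence may not be placed with certainty. The copies are those of 30-base stretches, and how well the sequenced read pairs could be placed was not measured.

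Short binding motifs were counted on both strands in the same windows, and a match is a description of the letters only. The GC box GGGCGG was in 26.6% of control-only windows (24.0 to 29.3), 38.9% of retained windows and 28.2% of all distal windows. The ETS core CCGGAA was in 7.10%, 10.3% and 7.45%. Other motifs were more frequent in the control-only than in the retained windows. The E-box bound by HAND and TWIST factors, CATCTG, was in 22.9% (20.5 to 25.6) against 18.5%, the AP-1 site TGANTCA in 5.09% against 3.04%, and the GATA site AGATAA in 3.07% against 1.83%. In all distal windows these were in 20.4%, 4.60% and 2.75%.

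In the range from 10 to 20 in −log10 p, the intervals of control-only and retained windows overlapped for each of the motifs just named. Control-only regions were still lower there, with a median −log10 p of 13.6 against 15.7. The shares were 25.1 and 28.1% for the GC box, 6.71 and 6.63% for the ETS core, 22.8 and 20.8% for CATCTG, 5.15 and 3.66% for TGANTCA, and 3.23 and 2.56% for AGATAA. Over regions of all heights, the MYC E-box CACGTG was in 6.05% of control-only and 6.52% of retained windows, and the T-box half-site AGGTGTG in 11.6 and 11.0%, and from 10 to 20 these were 5.63 and 7.25%, and 11.0 and 11.1%. The CTCF core CCNCNAGGG was in 14.7 and 13.3%. The homeodomain core TAATTA was in 3 and the CRE site TGACGTCA in 1 of 1042 control-only windows. In all distal windows these 5 were in 6.64% (CACGTG), 12.4% (AGGTGTG), 12.4% (CTCF core), 0.72% (homeodomain core) and 0.179% (CRE site). The other motifs counted, again over all heights, were the second GATA form TGATAA, in 2.30% of control-only and 1.31% of retained windows, the TEAD site GGAATG (12.1 and 10.5%), the REST half-site TTCAGCACC (0.288 and 0.317%), the RUNX site TGTGGTT (2.88 and 2.80%), the SOX site ACAAAG (10.5 and 8.71%) and the NFI half-site TTGGCA (12.8 and 11.3%). All distal windows held these in 2.08, 11.9, 0.384, 3.28, 10.7 and 12.5%, in the same order. The direction turned from 10 to 20 for the SOX site, with 10.4% of control-only and 11.4% of retained windows, for the NFI half-site, with 12.6 and 13.5%, and for the RUNX site, with 2.75 and 3.38%, as it did for the ETS core, the T-box half-site and the CRE site (0.12 and 0.0691%). In 35116 RefSeq promoters of 300 bases (GRCh38.p14), the GC box was in 45%, the ETS core in 17.2%, CATCTG in 14.7%, TGANTCA in 7.71% and AGATAA in 10.3%.

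**Figure D4:**
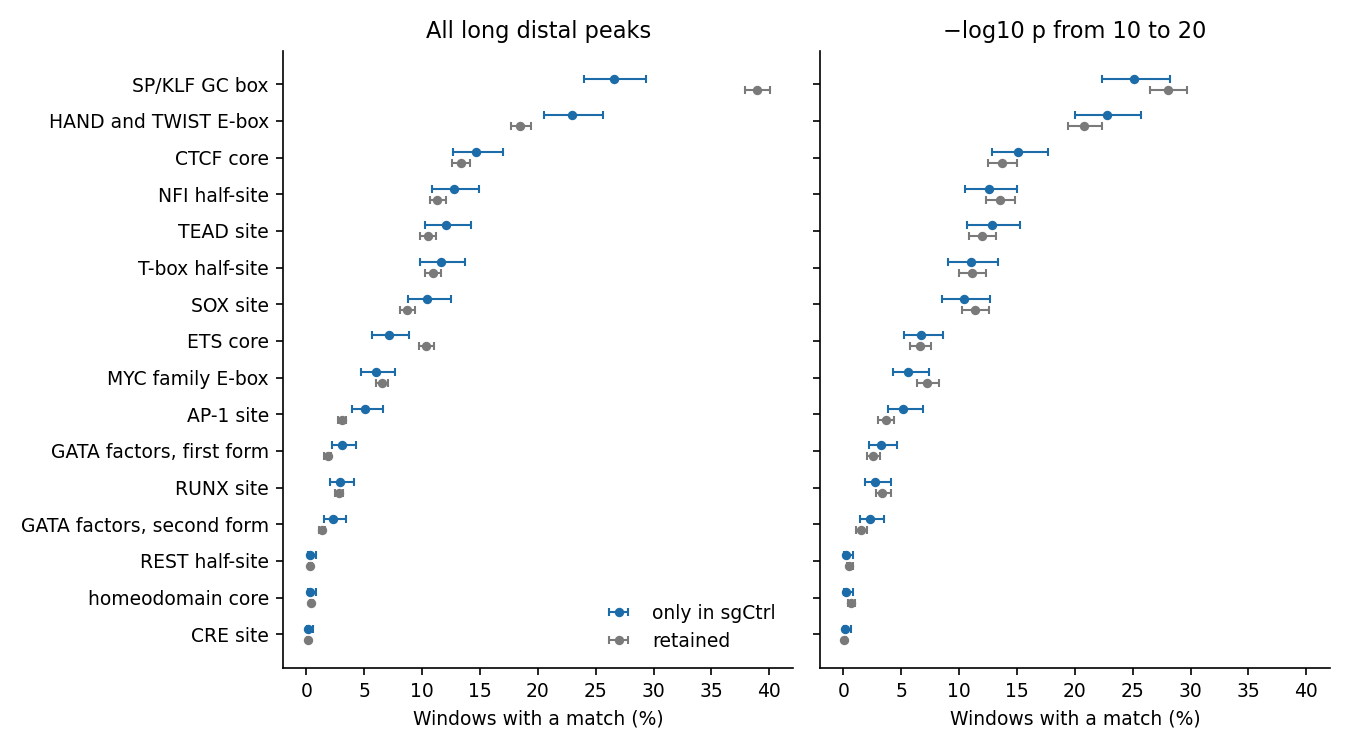
Share of 300-base summit windows with each motif on either strand, in control-only (blue) and retained (grey) long distal regions, for all regions (left) and for those with a −log10 p from 10 to 20 (right), with 95% Wilson intervals. The GC box stands apart on the left (26.6 against 38.9%), and on the right the intervals of the 2 groups overlap for every motif.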

How the data were processed

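Reads were trimmed with cutadapt and aligned with BWA to GRCh38 (names from the submitters' processing notes, versions not given in the sources used here). The authors merged the 2 replicates of each group and ran MACS2 on paired fragments at a p-value of 1e-06. An input library is not given in the sources used here. The deposited lists give the fold enrichment, a ratio of summit to local background, and the −log10 of the p-value and q-value that the authors' caller assigned. The deposited score column and the q-values were not used.

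The members and gene lists were chosen with earlier results of these data known. Genes, start sites (78462, protein-coding transcripts) and contexts came from GENCODE release 44, and sequence from GRCh38. A peak was assigned to the nearest start site. Summit pileup and background were recovered by inverting the Poisson p-value. This was checked on data simulated under the same model at low backgrounds only. The upper quartile of the background of control-only regions, 20.9, lay above the simulated range. Named were the 10 highest and 5 longest regions, those within 100 kb of 5 core genes, the 8 genes with most regions, the 3 highest of each list, and the regions at the limits of the rule. Some items that these rules name are not reported here. Intervals are 95% Wilson and cover counting error over peaks only. Python 3.11.15, numpy 2.4.6, pandas 2.3.3, scipy 1.17.1, pysam 0.24.0 and matplotlib 3.10.9 were used.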

Additional observations from a re-analysis of the deposited data

How the results depend on the processing

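With 1 pooled list per group, the data hold no spread between replicates, the depth is unknown, and the values describe these lists and these clones. No paired analysis was possible because each deposited list joins both samples of its group, and leaving out a replicate was not run for the same reason. The rule's limits set the number of regions. It was 1857 at a minimum length of 500 bp and 300 at 800 bp, 667 with start sites of all transcripts, 1820 with a −log10 p of at least 10 in both lists, and 1673 with peaks within 1 kb merged. The share of long distal peaks without a counterpart was 15% at 500 bp, 6.77% at 800 bp, 14.3% for no overlap, 8.73% for none within 5000 bp, 21.0% with a −log10 p of at least 10, 10.3% with lists of equal size and 15.1% with merging. The intron share was 56.0% at 800 bp. The share beside a retained peak was 53.0% for no overlap, 30.8% for none within 5000 bp, 39.6% over 10000 bp from start sites, 41.2% with all transcripts, 39.7% with a −log10 p of at least 10, and 21.2% and 87.4% for neighbours within 5000 and 50000 bp. The median GC content was 63.2% at 800 bp, 61.7% for none within 5000 bp, over 10000 bp from start sites and with all transcripts, 63.3% with a −log10 p of at least 10, 61.5% over whole peaks and 60.8% over 500 bp. Promoter peaks in both lists were found for 80.5% with a −log10 p of at least 10 and 81.3% within 1000 bp. With 500 bp windows, the homeodomain core (1.25%) and the T-box half-site (15.9%) changed which group had the higher share. So did the ETS core, the SOX, RUNX and CRE sites and the NFI and T-box half-sites at a −log10 p from 10 to 20. Their control-only shares there still counted as moved by less than the limits. The range of −log10 p from 10 to 20, single-copy regions, all transcripts of protein-coding genes and neighbours kept by another sgSNHG1 peak were added after seeing the data. Of 122 alternative values, 45 for the main results and 31 for motif shares moved by less than the limits set for them. The value for neighbours kept by another sgSNHG1 peak is among the 45 and could not have moved.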

Other observations

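The rule left out 2 stretches and the X chromosome. In the left-out part of chromosome 4, 100 of 174 long distal sgCtrl peaks (57.5%, 50.0 to 64.6) had no sgSNHG1 peak within 1000 bp. In the left-out part of chromosome 9 it was 18 of 29 (62.1%, 44 to 77.3). On the X chromosome it was 10 of 42 (23.8%, 13.5 to 38.5).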
